A study of Mus musculus with 2 samples.

Results

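The 10 genes described here carry, buffer or control calcium in the tubule of the kidney: the entry channels Trpv5 and Trpv6, the buffers S100g and Calb1, the exit proteins Slc8a1 and Atp2b1, the hormone-related genes Pth1r, Vdr and Kl, and the calcium sensor Casr. They were taken by symbol from the 32285 genes listed in the deposited matrices, where all 10 symbols were found and none was repeated. The kidneys of newborn mice were measured by droplet-based single-cell RNA sequencing, which gives each captured mRNA a cell barcode and a unique molecular identifier (UMI), so that a gene's count is a number of UMIs. The 2 libraries, called replicate 1 and replicate 2, have 1 genotype, Rbpj c/+ ; Foxd1cre/+, and 1 age, P0 (the day of birth). Every cell described here therefore came from a mouse with 1 conditional allele of Rbpj, the DNA-binding partner of the Notch receptors, and with Cre recombinase at Foxd1, a gene of the stromal progenitors, whose lineage gives the interstitium and mural cells and not the tubule. No other genotype was analysed here, so the comparisons are between cell types and measure no effect of the genotype. Nothing in the labels says that the libraries came from separate animals. The p-values therefore measure only how far differences between classes varied between these 2 libraries, pooled over the classes, and that spread may be technical.

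Most filtered calcium is taken back in the proximal tubule and in the thick ascending limb of the loop of Henle, largely between the cells and driven by the movement of salt. In the distal convoluted tubule and the connecting tubule the route runs through the cell instead: TRPV5 and TRPV6 let calcium in from the urine side, calbindin-D28k (Calb1) and calbindin-D9k (S100g) carry it across, and the sodium-calcium exchanger NCX1 (Slc8a1) and the plasma membrane calcium pump PMCA1 (Atp2b1) move it out to the blood side. Parathyroid hormone, through its receptor PTH1R, and active vitamin D, through its nuclear receptor VDR, raise this transport, Klotho (Kl) is the co-receptor for the hormone FGF23, and the calcium-sensing receptor CASR of the thick ascending limb lowers reabsorption there when blood calcium is high.

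In the mouse genome build GRCm38 (GENCODE M21), S100g lies at X:162961992-162964599 and Calb1 at 4:15881264-15908064. The channel genes are neighbours on chromosome 6, Trpv5 at 6:41652173-41680769 and Trpv6 at 6:41620624-41636405, both on the minus strand and 15767 bases apart. Slc8a1 lies at 17:81373105-81738377, Atp2b1 at 10:98914406-99026143, Pth1r at 9:110722085-110747145, Vdr at 15:97854425-97910630, Kl at 5:150952607-150993817 and Casr at 16:36493696-36562141. Promoter windows, the 250 bases before the start site, were taken from RefSeq (GRCm38.p6) for 9 of the 10 genes, in 12 windows. They were searched on both strands for AGGTCA, the half-site of nuclear receptors such as VDR, and for GGGCGG, the GC box. AGGTCA was found for 2 genes, S100g and Trpv6, and in 14.0% of the 32851 windows in the table. GGGCGG was found for Atp2b1, Kl, Pth1r and Vdr, and in 32.7% of all windows. The windows of S100g and Trpv6 are printed because these genes were both highest in connecting tubule-like cells and hold the half-site. They run 5′ to 3′ along the gene's strand, with each match in capitals, read as TGACCT where it lies on the opposite strand.
S100g, chrX:162964600-162964849, minus strand: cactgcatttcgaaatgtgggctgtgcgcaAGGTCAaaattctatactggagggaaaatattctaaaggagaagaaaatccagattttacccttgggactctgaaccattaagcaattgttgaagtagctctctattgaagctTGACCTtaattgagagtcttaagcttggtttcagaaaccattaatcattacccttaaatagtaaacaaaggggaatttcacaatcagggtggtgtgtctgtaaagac
Trpv6, chr6:41636406-41636655, minus strand: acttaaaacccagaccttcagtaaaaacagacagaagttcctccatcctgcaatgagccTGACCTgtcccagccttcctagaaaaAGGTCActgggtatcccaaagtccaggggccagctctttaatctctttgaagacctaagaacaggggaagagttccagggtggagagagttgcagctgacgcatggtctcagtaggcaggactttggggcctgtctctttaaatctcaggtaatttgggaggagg
The matches begin 220 and 107 bases before the start of S100g, and 165 and 191 bases before the start of Trpv6. They describe letters in these windows and not binding.

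The matrices held 200331687 UMIs in replicate 1 and 173166168 in replicate 2. A barcode counted as a cell where it had 3000 or more UMIs from 500 or more genes and no more than 20% of them mitochondrial, which gave 5529 and 4206, and 245 and 142 likely doublets were then removed, which left 9348 cells. The libraries shared 6 cell barcodes. Cells were assigned by marker genes, none of them one of the 10: a cell joined a class where that class's list scored highest and led the next list by 25%, and 87.2% and 87.5% of cells were assigned. Names such as connecting tubule-like therefore stand for ranges of a score, and 414 and 338 cells lay within 10% of a threshold. The distal classes held 256 and 307 loop of Henle-like cells, 53 and 113 distal convoluted tubule-like cells, 57 and 97 connecting tubule-like cells and 112 and 67 collecting duct principal-like cells, and 16 classes had at least 20 cells in both libraries. Their defining markers were present: Slc12a1 at 6609 and 6831 CPM (UMIs per 1000000 UMIs of the class, in replicates 1 and 2) in the loop, Slc12a3 at 2739 and 3149.9 in the distal convoluted tubule, Scnn1b at 662 and 601 in the connecting tubule and Aqp2 at 2122 and 1656 in the duct. The late classes graded into each other. Over connecting tubule-like cells the median summed CPM was 2372 for their own list. It was 1628 for the distal convoluted tubule list and 1350.2 for the principal cell list. Over distal convoluted tubule-like cells it was 5849.6 for their own list and 985 for the connecting tubule list. Cells near a threshold whose best list was that of the connecting tubule numbered 35 and 32, whether or not they joined the class. Barcodes with 1 to 100 UMIs, taken as free RNA, held the 10 genes too, S100g at 697 and 2319 CPM.

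Of the 10 genes, 7 had their highest mean level in connecting tubule-like cells: S100g, Calb1, Trpv5, Trpv6, Slc8a1, Vdr and Kl. For 6 of these 7 both libraries lay above both libraries of the distal convoluted tubule-like cells, the next class, and for Calb1 the ranges overlapped. The other 3 peaked elsewhere, Casr in the loop of Henle, Pth1r in podocyte-like cells and Atp2b1 in immune cells, so the set is one of the distal nephron for most of its members and not for Pth1r and Atp2b1. The heatmap of levels by class shows these peaks.

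**Figure D1:**
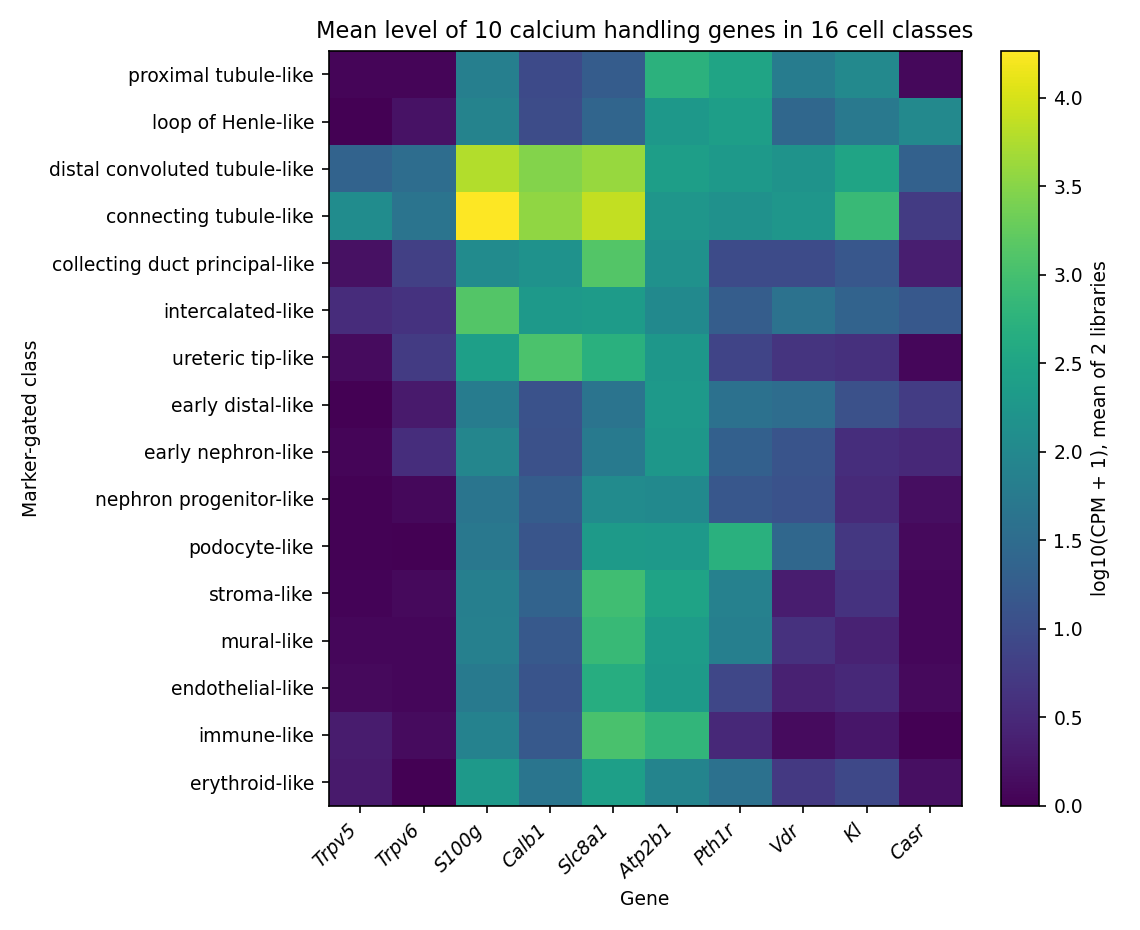
Mean level over the 2 libraries, as log10(CPM + 1), of each of the 10 genes in each of the 16 marker-assigned classes, to be read within a gene, since levels of different genes are not corrected for how well each is captured. Connecting tubule-like cells hold the highest value for 7 of the 10 genes, the loop of Henle-like class for Casr, podocyte-like cells for Pth1r and immune cells for Atp2b1.

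Trpv5, the channel that sets calcium entry in this part of the nephron, was counted, among the assigned cells, almost only in the late distal classes. Connecting tubule-like cells had 157 CPM in replicate 1 and 78.3 CPM in replicate 2. Distal convoluted tubule-like cells had 20.7 CPM in replicate 1 and 22.3 CPM in replicate 2, so the connecting tubule was higher in both libraries and the classes did not overlap. The counts behind these levels were 703 and 110 UMIs over both libraries, 6 UMIs were counted in intercalated-like cells, and none was counted in the loop of Henle-like or the early distal-like class. After every cell was thinned to 3000 UMIs, so that depth was the same everywhere, 36.8% and 12.4% of connecting tubule-like cells kept a Trpv5 UMI and 0% (0 counts allow up to 5.66%) and 4.42% of distal convoluted tubule-like cells did. Replicate 1 was higher than replicate 2 in the connecting tubule in both the level and the share. In loop of Henle-like cells the thinned share was 0% in both, which allows up to 1.17% and 0.977%. Without thinning, at median depths of 18473 and 29766 UMIs in the connecting tubule and 15264 and 23971 in the distal convoluted tubule, the shares were 68.4% and 70.1% in the first and 18.9% and 30.1% in the second. All intervals and limits of this kind cover counting error only.

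Trpv6, the second epithelial calcium channel, best known from the gut and placenta, was less sharply divided between the late segments. Connecting tubule-like cells had 44.3 CPM in replicate 1 and 40.1 CPM in replicate 2, and distal convoluted tubule-like cells had 38.8 CPM in replicate 1 and 26.1 CPM in replicate 2. The ranges did not overlap, but they came close. Low levels reached the collecting duct principal-like cells, at 6.76 and 4.27 CPM (56 UMIs), and the ureteric tip-like cells, at 4.80 and 4.39 CPM (28 UMIs), where Trpv5 was counted with 5 and 2 UMIs. Over podocyte-like and erythroid cells no Trpv6 UMI was counted. The thinned shares of cells were 14.0% and 10.3% in the connecting tubule, 5.66% and 3.54% in the distal convoluted tubule and 0% (0 counts allow up to 0.785%) and 0% (0 counts allow up to 1.53%) in podocyte-like cells, which should lack the gene and had median depths of 9456 and 14505 UMIs.

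S100g, encoding calbindin-D9k, was concentrated in the late distal tubule. In connecting tubule-like cells it reached 16779 CPM in replicate 1 and 19967 CPM in replicate 2 (18373 ± 2254 CPM, SD, n = 2). Distal convoluted tubule-like cells had 4364 CPM in replicate 1 and 7289 CPM in replicate 2, intercalated-like cells 1177 and 1511 CPM and ureteric tip-like cells 179 and 334 CPM. Each of these steps down was larger than the spread between the libraries. Loop of Henle-like cells had 68.0 and 92.5 CPM and proximal tubule-like cells 53.4 and 84.7 CPM. Beside these low levels stands the free RNA, since 5% of a cell's UMIs with the make-up of the empty barcodes would add 34.9 and 116 CPM of S100g, and its part in them was not tested. Over intercalated-like cells the connecting tubule list had a median of 1298 CPM beside 8049 CPM of their own list, and the part of such cells in their S100g was not tested. The thinned shares of cells with S100g were 100% and 97.9% in the connecting tubule and 73.6% and 80.5% in the distal convoluted tubule, against 16.8% and 18.9% in podocyte-like cells.

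Calb1, encoding calbindin-D28k, was high over a wider range than S100g, which took in the ureteric tip. Connecting tubule-like cells had 2350.0 CPM in replicate 1 and 4733 CPM in replicate 2, and distal convoluted tubule-like cells had 1899 CPM in replicate 1 and 3952 CPM in replicate 2. These ranges overlapped, with replicate 2 higher in both classes. Ureteric tip-like cells, the growing ends of the collecting system, had 1213 CPM in replicate 1 and 1067 CPM in replicate 2. They stood well above the collecting duct principal-like cells, at 120.4 and 172 CPM, and above the intercalated-like cells, at 131 and 277 CPM. Loop of Henle-like cells had 5.13 and 12.3 CPM. At equal depth nearly every tip-like cell had a Calb1 UMI, 96.3% and 100%, more than the 82.5% and 92.8% of connecting tubule-like cells, while 4.19% and 7.65% of podocyte-like cells had one.

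Slc8a1, encoding the exchanger NCX1, was high in the late distal classes and present in most non-epithelial classes. Connecting tubule-like cells had 7779 CPM in replicate 1 and 6866 CPM in replicate 2, and distal convoluted tubule-like cells had 2693 CPM in replicate 1 and 5254 CPM in replicate 2. The connecting tubule was higher in both libraries. Collecting duct principal-like cells had 1571 and 1073 CPM, immune cells 1056 and 1118 CPM, stroma-like cells 782 and 1025 CPM and mural-like cells 548 and 918 CPM. The duct and the immune cells overlapped. The lowest tubule levels were in loop of Henle-like cells, at 26.9 and 20.5 CPM, and proximal tubule-like cells, at 9.50 and 24.0 CPM. Thinned shares of cells were 94.7% and 88.7% in the connecting tubule, 93.8% and 89.6% in the principal cells and 3.33% and 5.45% in the proximal tubule.

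Atp2b1, encoding the pump PMCA1, was counted in every class, and its highest levels lay outside the distal tubule. Its peak was in immune cells, at 603 and 686 CPM in the 2 libraries. Proximal tubule-like cells came next with 558 and 533 CPM. These ranges did not overlap. Distal convoluted tubule-like cells had 268 and 225 CPM, connecting tubule-like cells 174 and 166 CPM and collecting duct principal-like cells 142 and 147 CPM. The distal convoluted tubule overlapped the stroma-like cells, at 258 and 328 CPM. The lowest levels, in erythroid cells, were 85.9 and 80.0 CPM.

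**Figure D2:**
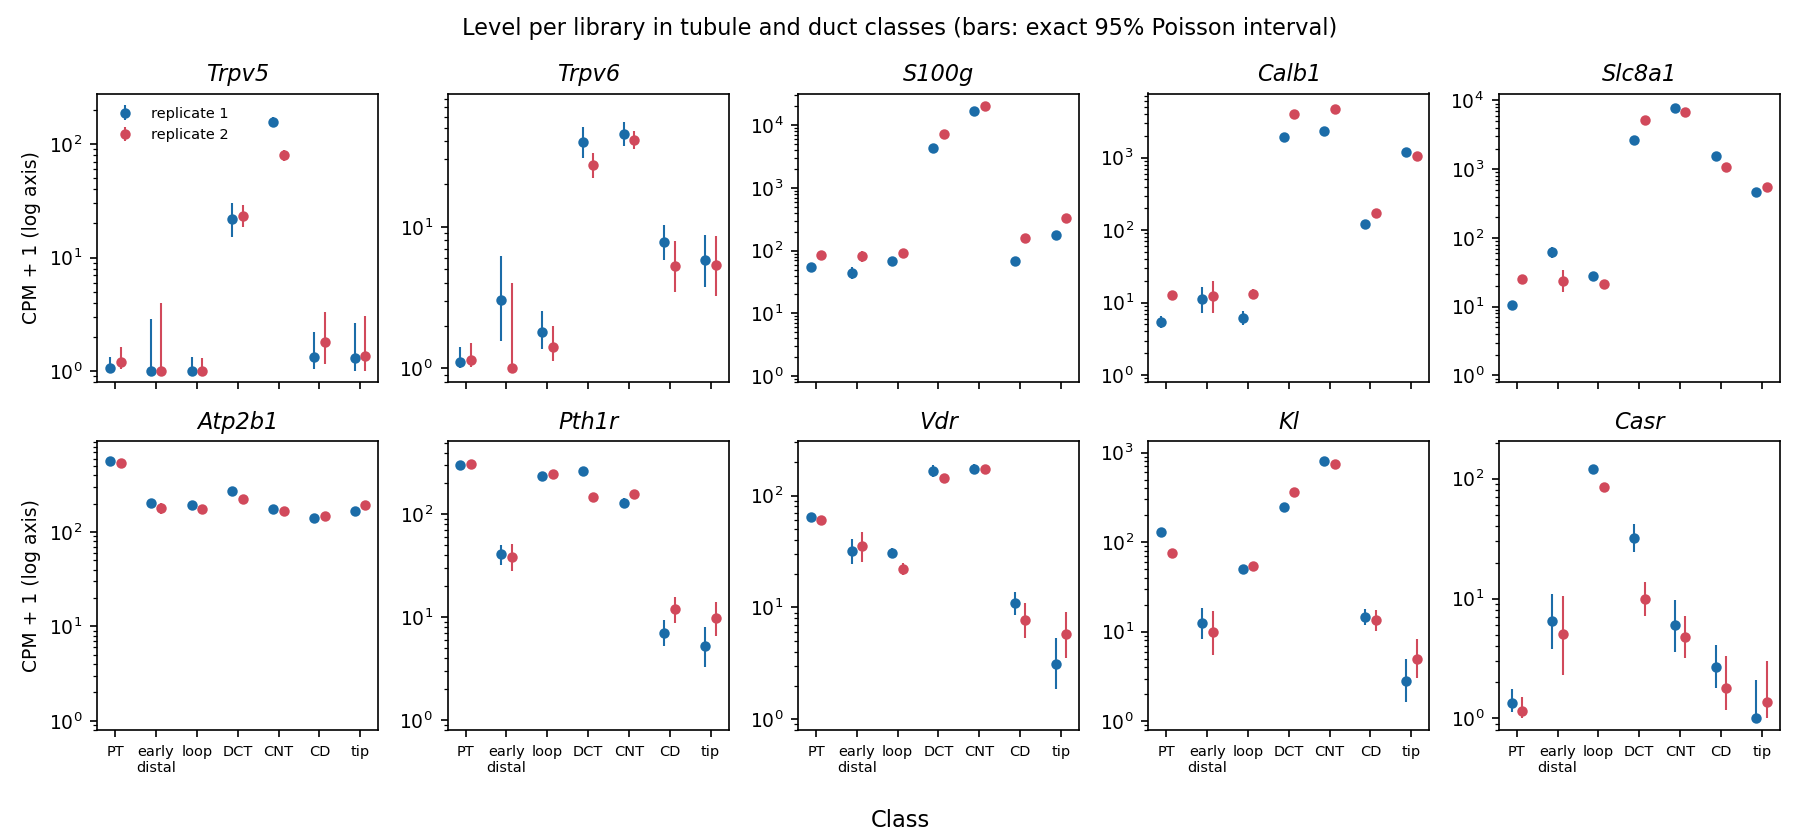
Level (CPM + 1, logarithmic axis) of each of the 10 genes along the tubule, from proximal tubule-like (PT) through early distal, loop of Henle, distal convoluted (DCT) and connecting tubule (CNT) to collecting duct principal (CD) and ureteric tip-like cells, with a point for each library and bars for its exact Poisson interval. The channel, calbindin and exchanger genes are higher in the connecting tubule than in the loop, Casr peaks in the loop, and Calb1 is higher in the tip than in the duct.

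Pth1r, the receptor for parathyroid hormone, was spread over the nephron and peaked outside its distal part. Podocyte-like cells had 472 CPM in replicate 1 and 558 CPM in replicate 2. Proximal tubule-like cells had 303 and 311 CPM, loop of Henle-like cells 236 and 249 CPM, distal convoluted tubule-like cells 262 and 147 CPM and connecting tubule-like cells 128 and 157 CPM. The podocyte-like cells were above the proximal tubule and the proximal tubule above the loop in both libraries, while the loop overlapped the distal convoluted tubule and that overlapped the connecting tubule. Collecting duct principal-like cells had 6.09 and 10.9 CPM. Thinned shares of cells were 71.7% and 75.5% in podocyte-like and 40.6% and 44.3% in loop of Henle-like cells, against 0.735% and 0% (0 counts allow up to 3.90%) in immune cells, whose median depths were 10015 and 10132 UMIs.

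Vdr, the vitamin D receptor, was close to equal in the late distal classes, with 172 CPM in replicate 1 and 172 CPM in replicate 2 in the connecting tubule and 167 CPM in replicate 1 and 142 CPM in replicate 2 in the distal convoluted tubule. The libraries of the classes did not overlap, by a small margin. Proximal tubule-like cells were lower, at 63.6 and 59.6 CPM, followed by intercalated-like cells at 42.5 and 35.2 CPM and loop of Henle-like cells at 29.9 and 21.0 CPM. Kl, which is cleaved to give a circulating form as well as acting with FGF receptors, stepped down more steeply. Connecting tubule-like cells had 795 CPM in replicate 1 and 735 CPM in replicate 2, distal convoluted tubule-like cells 247 and 359.6 CPM, proximal tubule-like cells 128 and 75.1 CPM and loop of Henle-like cells 49.3 and 53.6 CPM. The ranges of these classes did not overlap, though the step from the proximal tubule to the loop was no larger than the spread between the proximal libraries. At equal depth 70.2% and 66.0% of connecting tubule-like cells had Kl and 43.9% and 36.1% had Vdr, against 0.145% and 1.18% of endothelial cells with Kl and 0.200% and 0.433% of stroma-like cells with Vdr, whose median depths were 10653 and 13065 UMIs for endothelial and 11169 and 16175 UMIs for stroma-like cells.

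Casr, the calcium-sensing receptor, was a loop of Henle gene in these kidneys. Loop of Henle-like cells had 121 CPM in replicate 1 and 84.3 CPM in replicate 2 and held 81.5 and 83.5% of all Casr UMIs in the cells. Distal convoluted tubule-like cells had 31.3 and 8.98 CPM and intercalated-like cells 15.6 and 12 CPM. These overlapped each other and lay well below the loop. Early distal-like cells had 5.55 and 4.08 CPM, connecting tubule-like cells 5.01 and 3.82 CPM, and in immune cells no Casr UMI was counted. The thinned shares were 27.3% and 16.6% in the loop and 0.238% and 0% (0 counts allow up to 1.09%) in proximal tubule-like cells, at unthinned median depths of 25866 and 27762 UMIs in the loop and 31375 and 42353 in the proximal tubule.

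From the loop of Henle to the distal convoluted tubule, 9 of the 10 genes changed. UMIs were summed per library and class and all 16 classes were fitted together with edgeR's quasi-likelihood test, with the library as a block and Benjamini-Hochberg adjustment over 16438 genes. In this comparison 14.2% of all genes were called at an adjusted p under 0.05, 5.43% higher in the distal convoluted tubule and 8.77% lower. Of the 10 members 8 were called higher and 1 lower, with a median log2 difference of 4.10 against -0.10 over all genes, and the median is the same with Trpv5 at its lower bound. Calb1 rose by 8.37 ± 0.49 (log2 difference ± SE, edgeR adjusted p = 2.82e-11), Slc8a1 by 7.38 ± 0.46 (edgeR adjusted p = 1.02e-10), S100g by 6.12 ± 0.36 and Trpv6 by 5.64 ± 0.44. The loop levels of Calb1, Slc8a1 and S100g, at means of 8.72, 23.7 and 80.3 CPM, were near what 5% free RNA would add. That amount was 6.51 and 19.0 CPM of Calb1, 20.9 and 24.4 of Slc8a1 and 34.9 and 116 of S100g. The part of free RNA in the sizes of these differences was not tested. Trpv5 was called with an edgeR adjusted p of 1.02e-09, and since the loop held no Trpv5 UMI its level was at least 167-fold higher, against the level that 3 counts over both loop libraries would give. Vdr rose by 2.57 ± 0.18 and Kl by 2.54 ± 0.28. Casr fell by 2.56 on the log2 scale (SE 0.30, edgeR adjusted p = 2.73e-06). Pth1r, with a log2 difference of -0.30 ± 0.21, was not called (edgeR adjusted p = 0.39). Atp2b1 was called at 0.38 ± 0.12 (edgeR adjusted p = 0.0351), and that call was lost without the library block and under 3 other settings.

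Around these genes, lists of 44 further genes of calcium, magnesium and phosphate handling were followed, 40 of which had enough counts to test. Between the loop and the distal convoluted tubule 9 of the 40 were called, 5 higher and 4 lower, with a median log2 difference of -0.09. Among the 10 genes of paracellular and magnesium transport 3 rose and 2 fell. Trpm7, a channel kinase that carries magnesium and calcium, rose by 2.60 ± 0.13, from 112 and 113 CPM to 762 and 637 CPM. The claudins of the thick limb fell, Cldn10 with a difference of -7.47 ± 0.39 and Cldn16, which forms the paracellular path for magnesium and calcium, with -3.40 ± 0.45. Of the other pumps and exchangers 2 of 10 were called, both pumps of the plasma membrane: Atp2b4 rose by 2.39 ± 0.29 and Atp2b2 by 2.67 ± 0.69. Anxa2, a partner of S100a10 in carrying TRPV5 and TRPV6 to the membrane, fell (-3.24 ± 0.35), as did the FGF receptor gene Fgfr4 (-0.92 ± 0.25).

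From the distal convoluted tubule to the connecting tubule, 5 of the 10 genes were called, 3 higher and 2 lower, beside 9.48% of all genes (5.4% higher and 4.09% lower). Trpv5 rose by 2.28 ± 0.27 (edgeR adjusted p = 5.66e-06), S100g by 1.68 ± 0.29 (edgeR adjusted p = 0.000469) and Kl by 1.29 ± 0.26 (edgeR adjusted p = 0.00226). Casr fell, at -2.02 ± 0.44, and so did Atp2b1, at -0.56 ± 0.12 (edgeR adjusted p = 0.00413 and 0.00383). The other 5 were not called: Slc8a1 at 0.83 ± 0.35 (edgeR adjusted p = 0.159), Trpv6 at 0.38 ± 0.33, Calb1 at 0.25 ± 0.34, Vdr at 0.14 ± 0.17 and Pth1r at -0.52 ± 0.21. Median differences were 0.31 over the members and 0.02 over all genes. The calls of S100g and Kl were lost under other settings. With each cell given to its best list and no margin, S100g was at 1.29 (edgeR adjusted p = 0.0993) and Kl at 0.99 (edgeR adjusted p = 0.131). With 5% free RNA subtracted they were at 1.49 (edgeR adjusted p = 0.634) and 1.27 (edgeR adjusted p = 0.0738), and the call of S100g was also lost without the library block. With free RNA subtracted the difference went from 1.68 to 1.49 for S100g and from 1.29 to 1.27 for Kl, and both adjusted p-values rose. Free RNA at 5% would add 34.9 and 116 CPM of S100g, beside a mean of 5827 CPM in the distal convoluted tubule. The parts of free RNA and of the spread, which the fit estimates over all 16 classes together, in the higher p-values were not tested. Calls were gained for Slc8a1 with no low count filter (0.83, edgeR adjusted p = 0.00668) and for Pth1r with the wider gate margin (-0.69, edgeR adjusted p = 0.0246).

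Of the 40 further genes 7 were called between these segments, 3 higher and 4 lower in the connecting tubule, with a median of 0.01. All 4 called genes of paracellular and magnesium transport fell, among them Trpm7 at -2.16 ± 0.13, Cldn16 at -3.07 ± 0.84 and Fxyd2, a subunit of the sodium pump, at -1.85 ± 0.44. Fxyd2 stood at 3914 and 5018 CPM in the distal convoluted tubule and 834 and 1764 CPM in the connecting tubule. Stim1, the calcium sensor of the endoplasmic reticulum, rose by 2.53 ± 0.45, Stc1, encoding stanniocalcin, by 2.66 ± 0.38 and Anxa2 by 1.69 ± 0.36. Atp2b4 stood at 111 and 163 CPM in the distal convoluted and 154 and 156 CPM in the connecting tubule and was not called (edgeR adjusted p = 0.893).

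**Figure D3:**
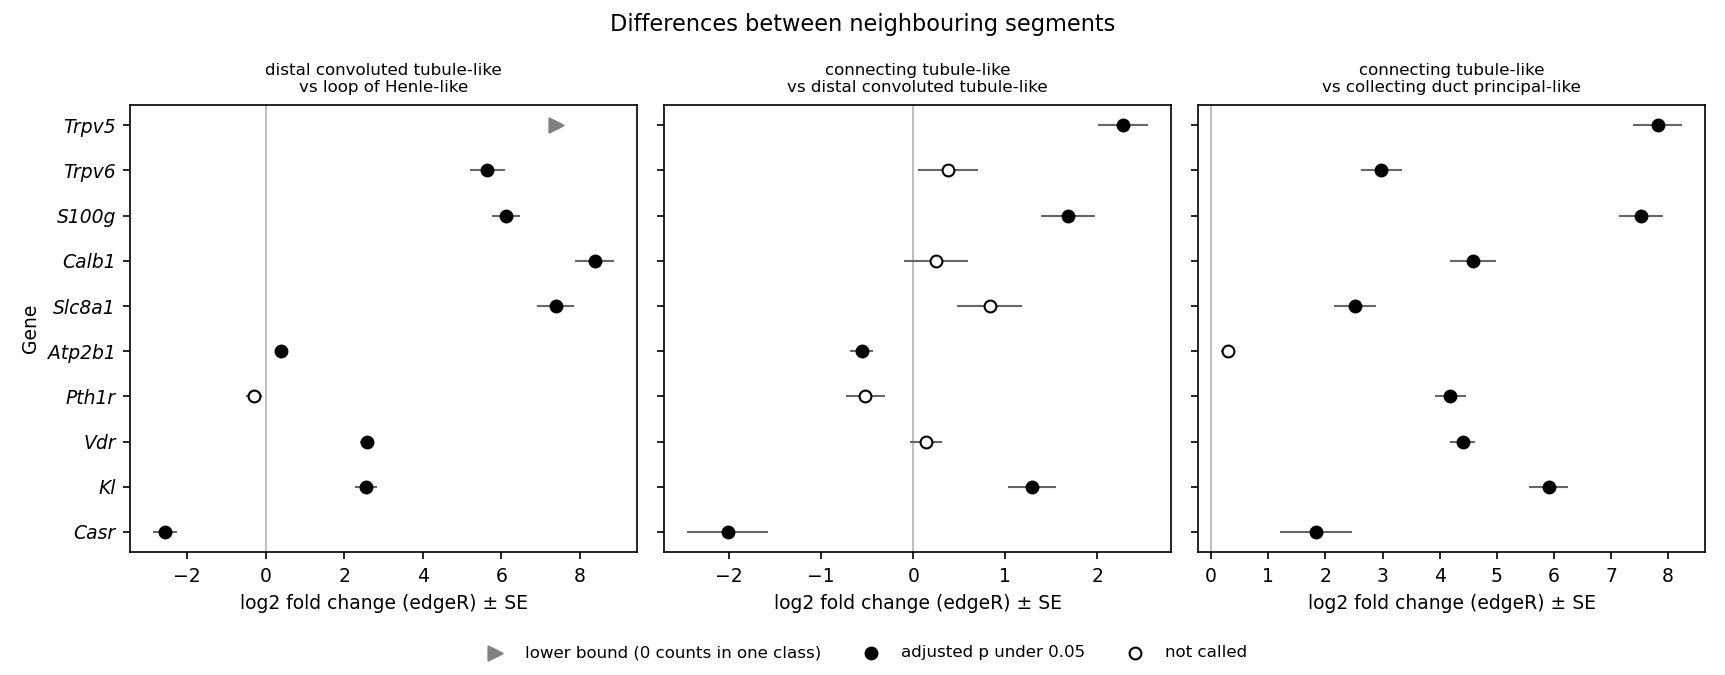
Log2 difference (± SE) of each of the 10 genes between the distal convoluted tubule and the loop of Henle, the connecting and distal convoluted tubules, and the connecting tubule and collecting duct, from the edgeR fit over 16 classes and 2 libraries. Filled symbols passed an adjusted p of 0.05 and the triangle marks the lower bound for Trpv5 against the loop, where no UMI was counted. Most differences are larger on both sides of the late distal tubule than inside it.

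Against the collecting duct principal-like cells that the connecting tubule opens into, 9 of the 10 genes were called, all higher in the connecting tubule, beside 10.6% of all genes called higher and 10.9% lower (21.6% in all). The median log2 difference was 4.29 over the members and -0.05 over all genes. Trpv5 was higher by 7.81 ± 0.42 (edgeR adjusted p = 3.29e-11), on 703 UMIs against 5. S100g was higher by 7.52 ± 0.38, Kl by 5.91 ± 0.34, Calb1 by 4.58 ± 0.40, Vdr by 4.40 ± 0.22 and Pth1r by 4.19 ± 0.27. The duct level of S100g, at a mean of 113 CPM, stood beside the 34.9 and 116 CPM that 5% free RNA would add. Trpv6 was higher by 2.98 ± 0.36 and Slc8a1 by 2.52 ± 0.37 (edgeR adjusted p = 1.58e-05), and for both the principal-like cells ranked just after the late distal classes. Casr, on 28 against 13 UMIs, was called at 1.83 ± 0.63 (edgeR adjusted p = 0.0388), and the call was lost under 4 other settings. Atp2b1 was not called, at 0.30 ± 0.12, but was called with DESeq2 (0.32, DESeq2 adjusted p = 0.0341) and with no gate margin (0.36, edgeR adjusted p = 0.0366).

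Among the 40 further genes 16 were called, 9 higher and 7 lower in the connecting tubule, with a median of 0.00. The 4 called genes of paracellular and magnesium transport were higher, among them Fxyd2 by 2.79 ± 0.46, Cnnm2 by 2.20 ± 0.23 and Trpm7 by 0.78 ± 0.13. Atp2b4, at 3.89 and 1.6 CPM in the duct, was higher by 5.74 ± 0.40. Atp2b2 was counted with 35 UMIs against 2 in the duct and Atp2a3 with 0 against 29, and both were called. In the list of further calcium buffers and channel partners 4 of 7 were lower and 1 higher, with S100a11 at -2.35 ± 0.38, Stc1 at -1.21 ± 0.28 and S100a10 at -1.15 ± 0.26. Rxra, the partner of VDR on DNA, was lower, at -1.53 ± 0.23, where Vdr itself was higher. Slc20a1, a phosphate transporter, was higher by 1.12 ± 0.32.

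Within the collecting system, 5 of the 10 genes differed between principal-like cells and the ureteric tip, beside 33.5% of all genes (17.3% higher in principal-like cells and 16.2% lower). Kl was higher in principal-like cells by 2.29 ± 0.54 (edgeR adjusted p = 0.00182), Slc8a1 by 1.45 ± 0.36 and Vdr by 1.42 ± 0.34. In principal-like cells Kl stood at only 13.7 and 12.5 CPM and Vdr at 9.98 and 6.68 CPM. The calbindins went the other way: Calb1 was lower in principal-like cells, at -3.02 ± 0.38 (edgeR adjusted p = 1.58e-06), and so was S100g, at -1.16 ± 0.30 (edgeR adjusted p = 0.00463). The call of S100g, which stood at 68.1 and 158 CPM in principal-like cells, was lost under 4 other settings. With 5% free RNA subtracted its difference was larger, at -2.29, and not called (edgeR adjusted p = 0.286), and that of Slc8a1 was 1.48 and not called (edgeR adjusted p = 0.0882). Medians were 0.55 over the members, among them Trpv5 on 5 and 2 UMIs, and 0.03 over all genes. Of the 40 further genes 16 were called, 12 higher and 4 lower in principal-like cells (median 0.22), led by Fxyd2 at 3.09 ± 0.52, Stc1 at 2.78 ± 0.31, Slc41a3, a magnesium transporter, at 2.52 ± 0.64, and Cldn10 at -2.22 ± 0.45. Slc8b1, the mitochondrial sodium-calcium exchanger, was higher by 1.58 ± 0.30, Rxra by 1.40 ± 0.23, and the phosphate transporter Slc20a1 was lower, at -1.43 ± 0.31.

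Early distal-like cells were gated on distal transcription factors, not all of which marked the class. Irx1 stood at a mean of 483 CPM against 29.7 over the other classes, and Irx2, Sim1, Sim2 and Pou3f3 were also higher. Irx3 stood at 26.9 against 18.9 and Tfap2b at 111 against 94.5, while Tfap2a was lower, at 6.53 against 13.9. Between early distal-like and loop of Henle-like cells, 3 of the 10 genes were called and all 3 were higher in the loop. This stood beside 30.6% of all genes called (16.2% higher and 14.4% lower), a like share. Casr rose by 4.58 ± 0.40 (edgeR adjusted p = 1.36e-08), Pth1r by 2.82 ± 0.25 (edgeR adjusted p = 7.78e-09), from 39.9 and 37.5 CPM, and Kl by 2.45 ± 0.41 (edgeR adjusted p = 5.94e-05), from 11.6 and 8.97 CPM. Trpv6, S100g, Calb1 and Slc8a1 stood far below their late distal levels in both classes, Atp2b1 stood at 202 and 179 CPM in early distal-like and 194 and 175 CPM in loop cells, and no median over the members is given because Trpv5 had no UMI in either. Under other settings 3 more genes were called: S100g, higher in the loop, with no low count filter (0.65, edgeR adjusted p = 0.0236) and in cells of at least 10000 UMIs (0.62, edgeR adjusted p = 0.0456), Trpv6, lower in the loop, with the stricter gate (-2.14, edgeR adjusted p = 0.0175), and Slc8a1, lower in the loop, with the wider gate margin (-1.16, edgeR adjusted p = 0.0408) and with 5% free RNA subtracted (-2.77, edgeR adjusted p = 0.031). Of the 40 further genes 14 were called, 8 higher and 6 lower in the loop (median 0.26). Cldn16 rose by 5.80 ± 0.63, Cldn10 by 4.37 ± 0.31 and Atp2b4 by 2.16 ± 0.47. Itpr1, the inositol trisphosphate receptor, rose by 1.34 ± 0.22 and Gna11, a G protein subunit through which CASR signals, by 0.43 ± 0.15. Cldn2 was lower, at -3.85 ± 0.68, as were Fgfr3 at -2.51 ± 0.37, Stim1 at -2.35 ± 0.48, S100a10 at -1.30 ± 0.27 and Fgfr1 at -1.26 ± 0.22.

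Proximal tubule-like cells, which reabsorb most filtered phosphate and make active vitamin D, were set against the mean of the loop and the distal convoluted tubule. Of the 10 genes 2 were called higher and 5 lower, beside 46.3% of all genes (26.2% higher and 20.1% lower). Atp2b1 was higher by 1.47 ± 0.10 (edgeR adjusted p = 9.93e-12) and Pth1r by 0.59 ± 0.17 (edgeR adjusted p = 0.00668), a call lost with 5% free RNA subtracted, where the difference was 0.58, and with no gate margin, where it was 0.44. Casr, Trpv6, Calb1, Slc8a1 and S100g were lower, at -7.21 ± 0.43, -4.86 ± 0.58, -4.24 ± 0.41, -4.13 ± 0.39 and -3.21 ± 0.30 in that order, and the call of Calb1 was lost with free RNA subtracted, where the difference was larger, at -8.64 (edgeR adjusted p = 1). Kl at -0.16 ± 0.23 and Vdr at 0.09 ± 0.15 were not called, with Kl at 128 and 75.1 CPM in the proximal tubule. Both lay between the averaged segments, so these small differences do not mean like levels. Mean Kl was 102 CPM against 51.4 in the loop and 304 in the distal convoluted tubule. Mean Vdr was 61.6 CPM against 25.4 and 154. Calb1, Slc8a1 and S100g were low in the loop too, at means of 8.72, 23.7 and 80.3 CPM. Their proximal means were 8.02, 16.7 and 69.1 CPM, and the libraries overlapped. No median is given, because Trpv5 had no UMI in the loop and no stable estimate. Of the 40 further genes 26 were called, 14 higher and 12 lower (median -0.13). In the vitamin D list 3 of 5 were called, all higher: Rxra by 1.54 ± 0.19, and the enzymes that make and break down active vitamin D, Cyp27b1 with 345 UMIs against 7 in the loop and 1 in the distal convoluted tubule, and Cyp24a1 with 674 against 1 and 1. Cldn2, the cation claudin of the proximal tubule, was higher by 7.19 ± 0.44, the FGF receptors Fgfr3 by 3.80 ± 0.26 and Fgfr4 by 1.51 ± 0.18, and Slc9a3r1, a scaffold of PTH1R and the phosphate transporters, by 2.80 ± 0.18. Cldn16 at -4.90 ± 0.50, Atp2b4 at -4.20 ± 0.32 and Stc1 at -4.05 ± 0.51 were lower.

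Outside the epithelium, mural-like and stroma-like cells differed in 2 of the 10 genes, beside 16.8% of all genes (9.06% higher in mural-like cells and 7.77% lower), again a share like that of all genes. Vdr was higher in mural-like cells by 1.35 ± 0.43 (edgeR adjusted p = 0.0324), at levels of only 3.11 and 3.09 CPM against 1.02 and 1.35 CPM, and Atp2b1 was lower, at -0.37 ± 0.12 (edgeR adjusted p = 0.0306). Neither call held under every alternative setting. Slc8a1, at -0.31 ± 0.35, and Pth1r, at -0.13 ± 0.22, were not called. Medians were -0.22 over the members and -0.06 over all genes. Of the 40 further genes 12 were called, 9 higher and 3 lower in mural-like cells (median 0.15). The pumps of the endoplasmic reticulum were among those that rose, Atp2a3 by 1.97 ± 0.41 and Atp2a2 by 0.84 ± 0.11, as was Itpr1, by 0.84 ± 0.21.

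The step between the distal convoluted and connecting tubules was looked at cell by cell with the salt transporters that mark them, Slc12a3 and the epithelial sodium channel subunits Scnn1b and Scnn1g. Late distal cells were those whose best list was either of the late segments. The higher of their late scores also led every other list, early distal aside, by 25%. They were split by UMIs of these transporters: Slc12a3 alone (22 and 35 cells in replicates 1 and 2), both (68 and 143), or Scnn1b or Scnn1g alone (42 and 67). Any late distal cells with none of them are not described. Trpv5 stood at 0 and 2.74 CPM with Slc12a3 alone, 142 and 68.5 CPM with both and 179 and 61.2 CPM with the channel subunits alone. In the same order Slc8a1 stood at 266 and 761, then 9100.3 and 9499, then 7412 and 4369.7 CPM. Kl stood at 99.9 and 87.6, then 722 and 736, then 843 and 604 CPM. In all 3 genes the cells with Slc12a3 alone lay below the other sets in both libraries. The cells with both transporters overlapped or exceeded those with the channel subunits alone. The 0 of Trpv5 in replicate 1 was over 22 cells and does not show that the gene is absent.

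S100g, over the same cells and in the same order, stood at 1644 and 3666, then 13577 and 16776, then 19381 and 18671 CPM, again lowest with Slc12a3 alone. Calb1 varied less, with 1046 and 2187, then 2788 and 5572, then 2664 and 4091 CPM. Vdr was highest in the cells with both, at 98.0 and 103, then 225 and 225, then 142 and 124 CPM. Casr ran the other way, with 58.4 and 10.9, then 9.69 and 6.91, then 6.74 and 1.42 CPM, while Atp2b1 was nearly flat, between 169 and 239 CPM. The first step of Casr was small in replicate 2. Median depths differed with the split, 13638 and 19767 UMIs with Slc12a3 alone, 27115 and 34204 with both and 17022 and 24971 with the channel subunits alone. The part of depth in these levels was not tested.

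**Figure D4:**
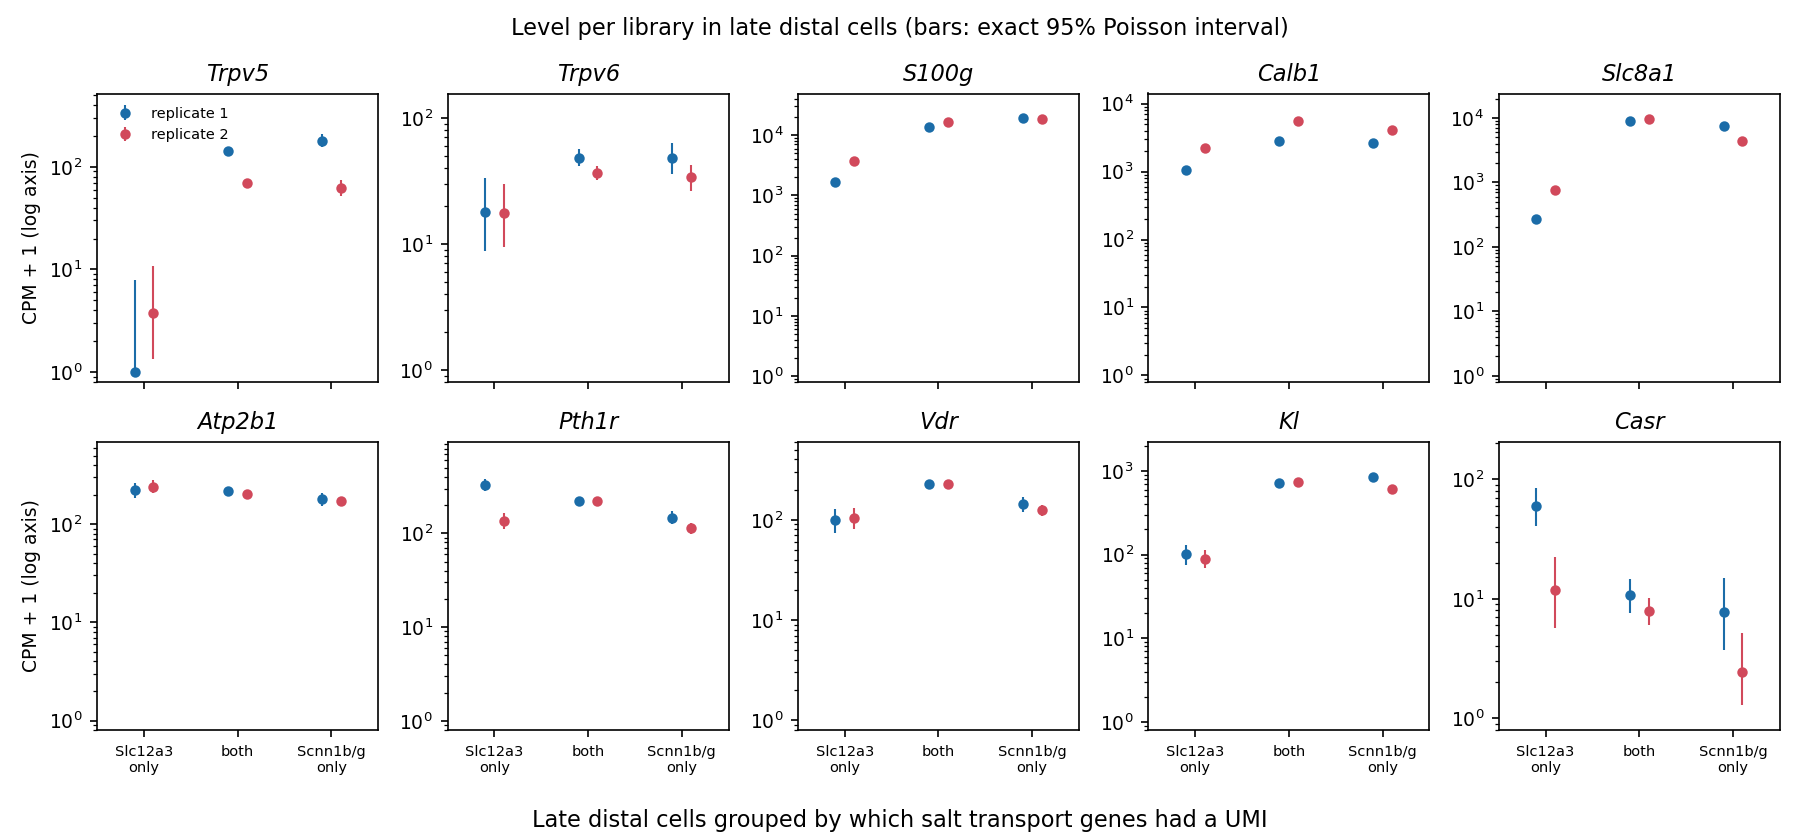
Level (CPM + 1, logarithmic axis) of the 10 genes in late distal cells split by UMIs of Slc12a3 and of Scnn1b or Scnn1g, with a point for each library and bars for its exact Poisson interval. Trpv5, Slc8a1, S100g and Kl step up between cells with Slc12a3 alone and cells with both transporters. Casr steps down, clearly in replicate 1 and little in replicate 2.

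Depth was also looked at inside the gates. In distal convoluted tubule-like cells under 10000 UMIs (19 and 31 cells), S100g stood at 18913 and 23989 CPM and Calb1 at 9302 and 14776 CPM, against 3182 and 6408 CPM of S100g and 1298 and 3381 CPM of Calb1 in the 34 and 82 deeper cells. Slc8a1 ran the opposite way, at 1234 and 1145 CPM in shallow and 2812 and 5471 CPM in deep cells. The shallow cells thus had several times more of the calbindins and less of the exchanger, in both libraries. In connecting tubule-like cells under 10000 UMIs (9 and 13 cells) S100g stood at 23363 and 45972 CPM and Slc8a1 at 6606 and 3281 CPM, against 16623 and 19456 CPM of S100g and 7807 and 6936 CPM of Slc8a1 in deeper cells. The class levels in distal convoluted tubule-like cells, 4364 and 7289 CPM of S100g and 1899 and 3952 CPM of Calb1, pool shallow and deep cells. They lie between the levels of these sets by construction.

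Members of the transcellular route were counted in the same cells. A UMI of Trpv5, of at least 1 calbindin and of at least 1 exit gene in the same cell was found in 39 and 68 connecting tubule-like cells, 68.4% and 70.1%, at the cells' own depths. In the distal convoluted tubule it was found in 10 and 33 cells, 18.9% and 29.2%, and in every other class in at most 4.44%. All 6 transport genes had a UMI in 26 and 34 connecting tubule-like cells and in 6 and 19 distal convoluted tubule-like cells. Since every connecting tubule-like cell with a Trpv5 UMI also had a calbindin and an exit gene, which nearly all cells of the class had, the share there is that of Trpv5 itself and adds no measurement to it. Inside the distal convoluted tubule at 3000 UMIs a cell, 71.8% and 81.3% of cells with S100g had Calb1, against 21.4% and 50.0% of cells without. The class held 53 and 113 cells and most had S100g, so the shares without it rest on few cells.

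Loop of Henle-like cells were split in the same way by Cldn16 and Cldn10, claudins of different stretches of the thick ascending limb, into cells with Cldn16 alone (28 and 48), with both (133 and 144) and with Cldn10 alone (91 and 110). Casr stood at 177 and 195 CPM with Cldn16 alone, 148 and 89.6 CPM with both and 40.5 and 24.4 CPM with Cldn10 alone. Pth1r, in the same order, stood at 771 and 689.8, then 240.1 and 216, then 78.7 and 108 CPM. Both receptors were thus highest in cells with Cldn16 alone and lowest with Cldn10 alone, with no overlap between the libraries of any of these sets. Kl had the same order, at 87.7 and 118, then 56.0 and 51.5, then 23.8 and 27.6 CPM, and so did Vdr, at 53.1 and 44.4, then 34.5 and 20.3, then 12.9 and 9.99 CPM. Umod, encoding uromodulin and a marker in the gate, had the reverse order, at 94.7 and 192, then 949 and 886, then 1299.9 and 1228 CPM. Median depths were 18423 and 23953 UMIs with Cldn16 alone, 35240 and 32284 with both and 20738 and 24902 with Cldn10 alone, so the sets with a single claudin had like depths. At 3000 UMIs a cell, Casr was found in 42.3% and 23.5% of loop cells with Pth1r and in 17.1% and 11.1% of those without.

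**Figure D5:**
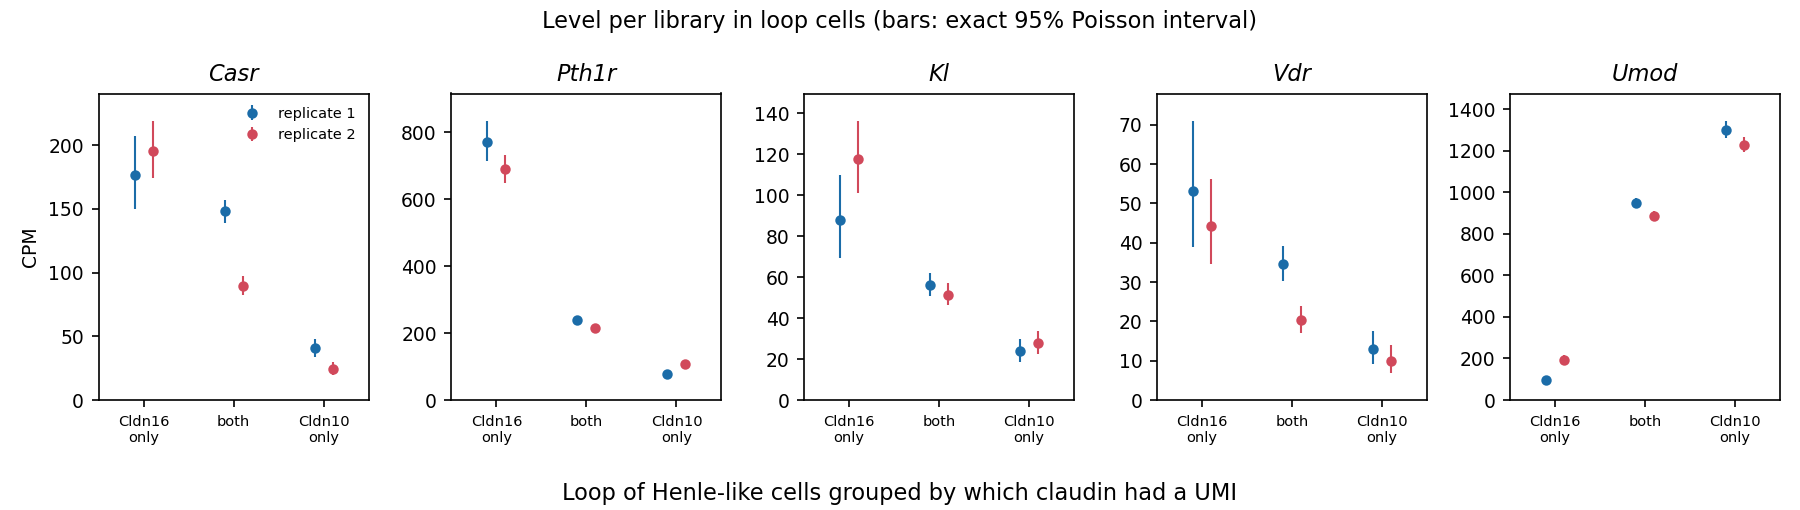
Level (CPM, linear axis from 0) of Casr, Pth1r, Kl, Vdr and Umod in loop of Henle-like cells split by UMIs of Cldn16 and Cldn10, with a point for each library and bars for its exact Poisson interval. The 4 calcium genes fall from Cldn16-only to Cldn10-only cells in both libraries, and Umod runs the other way.

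Genes with a like pattern were found by Pearson's r of log2(CPM + 1) over the 16 classes, taking the mean of the libraries. These values describe 16 points that share 2 libraries, and are given without a test. Within the set S100g and Trpv5 were most alike (r = 0.949), followed by Calb1 and Trpv6 (0.899), while Vdr and Kl stood at 0.870. Outside it, Klk1b5, a kallikrein-related gene, was close to S100g (0.946) and to Trpv5 (0.945), with Lmod3 (0.919) next to S100g and Llcfc1 (0.944) next to Trpv5. Calb1 was like Scnn1b (0.894), which is a marker of the connecting tubule gate. Trpv6 was like Gm16143 (0.90) and H2-Q2 (0.897). Kl was like Slc15a1, a peptide transporter (0.937), Usp2 (0.937) and Albfm1 (0.924), and Vdr was like Trabd2b (0.919), Pank1 (0.916) and Ss18l2 (0.911). Casr was closest to Cldn14, the claudin through which it acts in the thick limb (0.962), and then to Lrrc66 (0.929) and Car15 (0.925). Pth1r was like Creb3l1 (0.872), Mturn (0.849) and Speg (0.844), and Atp2b1 like Lipa (0.899), Blvra (0.890) and Tmem219 (0.885). Slc8a1 had no close neighbour, with Sh3bgrl3 at 0.745, Arhgdib at 0.736 and Gm14508 at 0.728.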

How the data were processed

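Per the labels, libraries were made by a droplet 3′ method, and the deposited values are raw counts of UMIs per gene and barcode for 2761081 and 2545815 barcodes, unfiltered. The matrices were written by Cell Ranger, version 4 per the file headers and 6.0.1 with build mm10 per the submitters' processing notes. How multi-mapped reads and strand were handled is not given in the sources used here.

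Likely doublets were removed with the Scrublet method in scanpy 1.11.5, at 0.8% per 1000 cells. A marker list's score is the mean of its genes' log levels, each scaled to its 90th percentile, and a cell needed UMIs of at least 3 of a list's markers and a score of 0.15 (5 markers for erythroid cells, and no UMI of Slc12a1 or Slc12a3 for early distal-like cells). These gate settings were chosen after looking at the cells, without the 10 genes, and the gate alternatives with no margin and a margin of 50% were chosen after seeing the data. The 10 genes and the lists of further genes were chosen with earlier results of these data known. UMIs were summed per library and class (32 sums of 489106 to 19325836 UMIs), and 16565 genes passing filterByExpr were fitted with edgeR 4.0.16 (R 4.3.3, TMM, quasi-likelihood F test, two-sided, 15 residual degrees of freedom). The 15 degrees of freedom come from 16 classes of the same 2 libraries and are not separate replicates. The 127 gate markers among the fitted genes were left out of the adjustment, which covers 16438 genes. Median depths in cells were 14689.5 and 19773 UMIs. The fit was also run on counts simulated from its own means and spreads, with known changes. Such counts cannot show errors that come from the gates, from free RNA or from having 2 libraries. Intervals are exact at 95%, and the limit for 0 counts is that of 3 counts. Further genes are named where they were among the 3 largest called changes of their list with the same sign in both libraries, with a few others named for their levels. Pairing is by library, since both libraries hold every class. Alternatives were DESeq2 1.42.0, no low count filter, no library block, cells of at least 10000 UMIs, doublets kept, a stricter gate of 4 markers, the 2 gate margins, 5% free RNA subtracted, no thinning and each library alone.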

Additional observations from a re-analysis of the deposited data

Results flagged for a closer look

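The 674 and 510 cells that joined no class entered no comparison, and all 10 genes were counted in them above the limit of 3 counts. S100g had a mean of 2826 CPM there (2291 and 3361 in replicates 1 and 2), Calb1 767 CPM, Slc8a1 1933 CPM and Trpv5 21.3 CPM. Trpv6 stood at 8.0 CPM, Kl at 135, Vdr at 49.8, Atp2b1 at 187, Pth1r at 80.1 and Casr at 6.56 CPM. These cells held 42.2 and 31.6% of all S100g UMIs and 52.9 and 36.8% of all Trpv5 UMIs in the cells, while the distal convoluted and connecting tubule-like classes held 44.7 and 60.6% of Trpv5. The best list of 29 and 43 of them was that of the connecting tubule, and of 19 and 28 that of the distal convoluted tubule, without the margin that the class asked for.

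In 12 and 8 urothelium-like cells, too few for a class, 3 of the genes were above that limit: Atp2b1 at a mean of 133 CPM, Slc8a1 at 47.7 CPM and S100g at 42.0 CPM, the last beside its free RNA.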

How the results depend on the processing

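Of 68 differences of the 10 genes between classes, 40 were called, 30 stayed called in the same direction under all 9 alternatives that allow a test, 10 were lost in at least 1, and no called difference changed sign. Of the 28 not called, 6 were called under at least 1 alternative, as given beside them. With both libraries holding every class the library is the pairing, and without the replicate block 1010 genes were called between the connecting and distal convoluted tubules in place of 1559. Of the 10 genes, 3 were called there with no gate margin and with 5% free RNA subtracted, in place of 5. Between principal-like and tip-like cells 3 were called with free RNA subtracted, in place of 5 (Slc8a1, edgeR adjusted p = 0.0882, and S100g). Between mural-like and stroma-like cells 1 was called, in place of 2, with no low count filter, no replicate block, cells of at least 10000 UMIs, the stricter gate, either gate margin or free RNA subtracted.

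Differences that were not called and changed sign were those of Trpv5 between principal-like and tip-like cells (-0.97 with the wider margin) and Vdr in the proximal comparison (-0.0252 with no margin). Between mural-like and stroma-like cells they were S100g (-0.10 at 10000 UMIs and -0.15 with no margin), Calb1 and Trpv6 (0.0701 and 0.12 with doublets kept) and Casr (0.0148 with the stricter gate and 0.0255 with the wider margin). Counts of calls cannot be given for a library alone, whose values have no test.

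Levels in connecting tubule-like cells moved with the gate: S100g to 22233 CPM with the wider margin, Trpv6 to 38.0 with no margin and 51.7 with the wider one, Slc8a1 to 8216 and 5573, Vdr to 191 and 165, and Kl to 675 with the wider one. With doublets kept Slc8a1 was 6652, Kl 679 and Vdr 167 CPM, and Vdr was 173 at 10000 UMIs, 175 with the stricter gate and 179.8 with free RNA subtracted. Shares of connecting tubule-like cells rose without thinning to 96.0% for Calb1, 69.3% for Trpv5, 57.4% for Trpv6, 98.6% for Slc8a1, 81.9% for Vdr and 84.6% for Kl, and that of S100g was 93.0% with no margin. Unthinned shares were 66.4% for Casr in the loop, 90.3% for Pth1r in podocyte-like cells (66.2% thinned at 10000 UMIs) and 86.8% for Atp2b1 in immune cells (77.7% at 10000 UMIs and 73.0% with the stricter gate). The cause of these changes was not tested.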
